A study of Mus musculus with 10 samples.

Results

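The 9 genes described here are Ciita, the master regulator of MHC class II transcription, and 8 genes of the class II pathway that it drives: the chains H2-Aa, H2-Ab1 and H2-Eb1, the invariant chain Cd74, the peptide editor subunits H2-DMa and H2-DMb1, and the editor's inhibitor subunits H2-Oa and H2-Ob. They were taken by name, and each was read from the probe set that carries that 1 gene symbol and has the highest mean over the arrays. Of the 9 genes, 8 had such a probe set and all 8 passed the filter on low values, among 13371 genes tested of 22180 genes with a probe set of 1 symbol. The probe set of Cd74 names a second gene, so Cd74 was not analysed here.

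MHC class II molecules are pairs of an α and a β chain that carry peptides from endosomes to the cell surface, where CD4+ T cells read them. New pairs travel with the invariant chain to the endosome, where H2-DM exchanges its remnant for peptide and H2-O restrains H2-DM. Ciita does not bind DNA itself. It is recruited to class II promoters by factors on the X box (the RFX complex and CREB) and the Y box (NF-Y). Dendritic cells (DCs) make class II at a high level at rest, and when they mature they are known to switch Ciita transcription off while holding class II molecules that are already made at the surface.

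Expression was measured on Affymetrix Mouse Gene 2.0 ST arrays in 10 samples of splenic CD11c+ DCs, 1 array per sample, as log2 intensities. The donors were wild type (WT) or C3ar1-/-C5ar1-/-; the latter, called DRKO as in the labels, lack both receptors for the complement anaphylatoxins. The mice had been injected 4 h earlier with 100 µg of CpG, a DNA ligand of Tlr9, or with vehicle ("unstimulated"). There were 2 WT unstimulated, 3 WT CpG, 2 DRKO unstimulated and 3 DRKO CpG samples. The labels give no strain, sex or age, do not say how the receptor genes were inactivated, and do not say that samples of a group came from separate mice. The p-values therefore measure the spread between these samples, which may be in part technical. Replicate numbers below follow accession order and pair nothing.

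The labels and the cells in each isolate were checked first. C3ar1 and C5ar1 read lower in each of the 5 DRKO arrays (5.27 to 5.64 and 4.42 to 4.99) than in any of the 5 WT arrays (5.80 to 6.59 and 5.51 to 7.32), although the difference averaged over stimulation did not pass (limma, Benjamini-Hochberg adjusted p = 0.0888 and 0.0786). Markers of conventional DCs had a mean of 9.65 to 10.15 in every array, and none of the 9 lay below the array median in every array. Markers of other cells were present as well. The mean of 13 neutrophil markers ran from 6.83 to 8.74 in WT arrays and from 5.39 to 6.95 in DRKO arrays. The mean of 14 splenic macrophage markers was 8.39 in DRKO unstimulated 2 and 8.25 in DRKO CpG 3 against 9.79 to 10.18 in the other arrays. Y-linked genes were read in DRKO unstimulated 1 and in DRKO CpG 1 and 2 (mean 7.33 to 7.93, against 3.21 to 3.68 in the others). In such isolates, fewer cells of a type and less RNA per cell cannot be told apart. Sample titles run in 2 number series, and WT CpG 3, DRKO unstimulated 2 and DRKO CpG 3 belong to the second (20 and over). The protocol text speaks of a first batch without assigning samples to it.

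The promoter windows of 5 of these genes held letters that match the cores of the X and Y boxes. They are printed here because the same 5 genes did not all respond to CpG. RefSeq windows of 250 bases before the start site (build GRCm38.p6) were at hand for 6 of the 9 genes, with 2 windows for H2-DMa. In capitals stand the core of an X box, searched as GNAAC, and the core of the Y box, ATTGG. The pattern was chosen after the windows were seen.
H2-Aa (chr17:34287857-34287914, minus strand): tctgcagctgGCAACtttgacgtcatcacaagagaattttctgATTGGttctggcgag
H2-Eb1 (chr17:34305766-34305822, plus strand): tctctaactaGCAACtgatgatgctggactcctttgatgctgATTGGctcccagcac
H2-DMb1 (chr17:34153087-34153144, plus strand): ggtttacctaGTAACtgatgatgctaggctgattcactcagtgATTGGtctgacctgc
H2-Oa (chr17:34092293-34092350, plus strand): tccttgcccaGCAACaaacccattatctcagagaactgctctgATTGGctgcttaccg
H2-Ob (chr17:34238808-34238862, plus strand): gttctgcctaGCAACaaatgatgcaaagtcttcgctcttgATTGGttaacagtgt

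In all 5 the cores stood on the strand of the gene, 25 to 28 bases apart, with the Y core ending 38 to 56 bases before the start site. The pair at gaps of 15 to 45 bases occurred on the gene strand in 2.11% of all 32851 promoter windows of the table. Alone the cores are common. On either strand, GNAAC was found in 79.6% of windows and ATTGG in 33.8%. Neither window of H2-DMa held the pair, and no window was at hand for Ciita or H2-Ab1. H2-Eb2, a class II β gene outside the 9, also held it at 27 bases, and the window of H2-DMb2, another DM β gene, did not hold it. These matches describe letters in a window and do not show binding.

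Ciita and 3 genes of the peptide-editing machinery were lower after CpG, while the values of the class II chains themselves stayed within narrow limits. Averaged over both genotypes, 4 of the 8 genes fell at an adjusted p under 0.05, against 18.6% of all genes tested, and none rose, against 11.2% of all genes tested. The median change of the 8 genes was -0.37 on the log2 scale, beside -0.03 over all genes tested. In WT DCs 3 of 8 fell (13.3% of all genes tested fell), and in DRKO DCs 1 of 8 fell (5.76% of all genes tested fell).

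**Figure D1:**
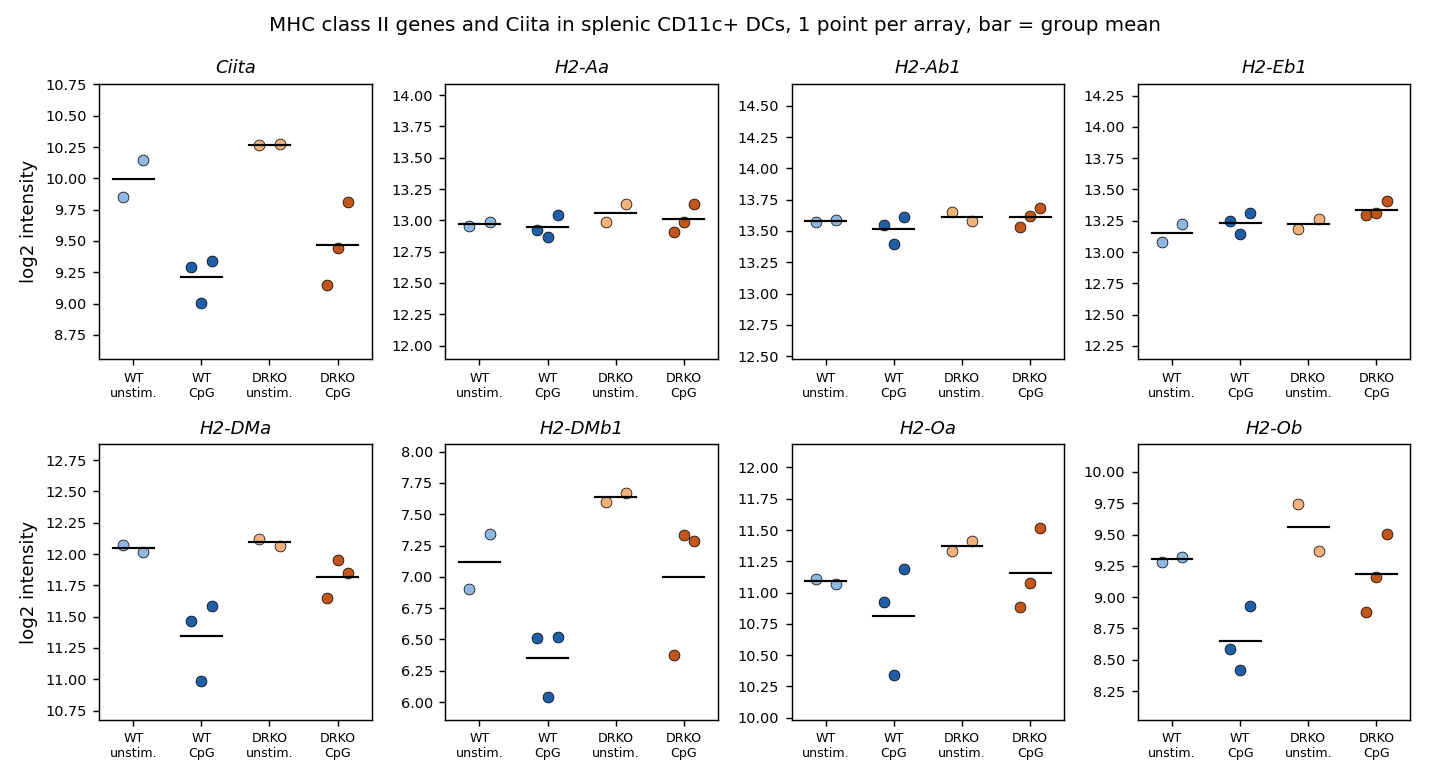
Log2 intensity (y axis, same width of scale in each panel, centred on its own values) of the 8 genes in every array, by group on the x axis, with 1 point per array and a bar at the group mean. The Ciita points of all 6 CpG arrays lie between 9.002 and 9.81, below the lowest unstimulated array at 9.85, whereas the H2-Aa points all lie between 12.86 and 13.13.

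Ciita, on chromosome 16, read 9.85 and 10.15 in the WT unstimulated arrays and 9.29, 9.002 and 9.34 in the WT CpG arrays. It read 10.26 and 10.27 in the DRKO unstimulated arrays and 9.15, 9.44 and 9.81 in the DRKO CpG arrays. Every CpG array was below every unstimulated array, and DRKO CpG 3 came closest to the unstimulated range. Ciita fell by 0.79 on the log2 scale (SE 0.13, 4 unstimulated and 6 CpG arrays, limma with Benjamini-Hochberg adjusted p = 0.00140), to 57.7% of the unstimulated level. Within a genotype the change was -0.79 ± 0.19 in WT DCs (SE, adjusted p = 0.0138, limma) and -0.80 ± 0.19 in DRKO DCs (adjusted p = 0.0249, limma).

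The averaged fall of Ciita passed in all 18 alternative settings tried, between -0.88 and -0.62, while the falls within a genotype rest on few arrays. Without WT unstimulated 2 the WT fall was -0.64 (adjusted p = 0.133, limma). The DRKO fall did not pass without DRKO unstimulated 1 (adjusted p = 0.0954), DRKO unstimulated 2 (0.119), DRKO CpG 1 (0.0694) or DRKO CpG 2 (0.0618), nor with only the DRKO groups in the fit (0.0881), by limma. Leaving out 1 array moved it between -0.97 and -0.64. With the 3 DRKO arrays that read Y-linked genes left out, the 1 DRKO array of each kind that was left differed by -0.46 (adjusted p = 0.358, limma).

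The H2-DM heterodimer catalyses peptide exchange on class II molecules. Its α chain, H2-DMa, read 12.07 and 12.02 in WT unstimulated arrays and 11.46, 10.98 and 11.58 in WT CpG arrays. In DRKO arrays it read 12.12 and 12.07 unstimulated and 11.65, 11.95 and 11.85 after CpG. CpG arrays lay below unstimulated arrays without overlap in both genotypes, with a wider gap in WT. H2-DMa fell by 0.70 in WT DCs (log2, SE 0.17, adjusted p = 0.0150, limma), to 61.4% of the unstimulated level. In DRKO DCs the change was -0.28 (SE 0.17, adjusted p = 0.364, limma), and averaged over genotypes H2-DMa fell by 0.49 (SE 0.12, adjusted p = 0.0115, limma). The WT call was lost without WT unstimulated 1 (adjusted p = 0.100) or WT unstimulated 2 (0.0789). The averaged call was lost with the Y-reading DRKO arrays left out (-0.46, adjusted p = 0.0766, limma).

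The β chain of the editor, H2-DMb1, read 6.90 and 7.34 in WT unstimulated and 6.51, 6.04 and 6.52 in WT CpG arrays. In DRKO arrays it read 7.60 and 7.67 unstimulated and 6.38, 7.34 and 7.29 after CpG. The groups did not overlap within either genotype, but DRKO CpG 1 was well below the other DRKO CpG arrays. H2-DMb1 fell by 0.70 averaged over genotypes (log2, SE 0.19, adjusted p = 0.0200, limma), to 61.6% of the unstimulated level. Within a genotype neither change passed: -0.76 ± 0.28 (SE) in WT (adjusted p = 0.0748) and -0.64 ± 0.28 in DRKO DCs (adjusted p = 0.182, limma). The averaged call was lost without WT unstimulated 2 (-0.59, adjusted p = 0.0923) or DRKO unstimulated 2 (-0.68, adjusted p = 0.0590, limma), and without DRKO CpG 1 the WT change passed (adjusted p = 0.0144, limma). The WT change passed too when the fit took the number series as a block (-0.85, adjusted p = 0.0394), with only the WT groups in the fit (0.0155) and with the Y-reading DRKO arrays left out (0.0155, limma). H2-DMb2, a near-identical neighbour that encodes another DM β chain, changed by -0.22 ± 0.11 averaged over genotypes (SE, adjusted p = 0.195, limma). It read far brighter, at 11.68 to 12.21 over the arrays, than H2-DMb1 at 6.04 to 7.67. The fall of H2-DMb1 therefore does not stand for DM β transcripts as a whole. How far the probe sets of the β copies read each other's transcripts was not tested, so the H2-DMb1 values are uncertain to that extent.

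H2-O, an H2-DM-like dimer that holds H2-DM back, changed unevenly. H2-Ob, its β chain, read 9.28 and 9.32 in WT unstimulated and 8.59, 8.42 and 8.93 in WT CpG arrays. In DRKO arrays it read 9.74 and 9.37 unstimulated and 8.88, 9.16 and 9.50 after CpG. The WT groups did not overlap and the DRKO groups did. H2-Ob fell by 0.66 in WT DCs (log2, SE 0.20, adjusted p = 0.0426, limma) and by 0.52 averaged over genotypes (SE 0.14, adjusted p = 0.0205, limma), whereas the DRKO change of -0.37 did not pass (SE 0.20, adjusted p = 0.292, limma).

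The H2-Ob calls were the least stable of the 4. The WT call was lost when WT unstimulated 1 (adjusted p = 0.161), WT unstimulated 2 (0.183), WT CpG 1 (0.109), WT CpG 2 (0.128) or DRKO CpG 2 (0.0564) was left out, and with no filter (0.0599, limma throughout). The averaged call was lost without WT unstimulated 1 (0.0601), WT unstimulated 2 (0.0675) or DRKO unstimulated 1 (0.0844). With the Y-reading DRKO arrays left out, the averaged change was -0.26 (adjusted p = 0.248, limma).

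H2-Oa, the α chain of H2-O, read 11.11 and 11.07 in WT unstimulated and 10.92, 10.34 and 11.19 in WT CpG arrays. In DRKO arrays it read 11.33 and 11.41 unstimulated and 10.88, 11.08 and 11.51 after CpG. The groups overlapped in both genotypes, since WT CpG 3 and DRKO CpG 3 read above their unstimulated arrays. The averaged change was -0.24 (log2, 95% interval -0.61 to 0.13, adjusted p = 0.327, limma). Without WT CpG 2 it was -0.12 (adjusted p = 0.571, limma).

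The chains of the class II molecules moved least. H2-Aa, the I-A α chain, read 12.96 and 12.98 in WT unstimulated, 12.93, 12.86 and 13.05 in WT CpG, 12.99 and 13.13 in DRKO unstimulated, and 12.91, 12.99 and 13.13 in DRKO CpG arrays. H2-Ab1, the I-A β chain, read 13.57 and 13.59 in WT unstimulated, 13.55, 13.40 and 13.61 in WT CpG, 13.65 and 13.58 in DRKO unstimulated, and 13.53, 13.62 and 13.68 in DRKO CpG arrays. For both genes the CpG and unstimulated arrays overlapped in each genotype. The averaged CpG change was -0.04 for H2-Aa (log2, 95% interval -0.22 to 0.15, adjusted p = 0.794, limma) and -0.03 for H2-Ab1 (95% interval -0.21 to 0.14, adjusted p = 0.801, limma).

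H2-Eb1, the I-E β chain, read 13.08 and 13.22 in WT unstimulated, 13.25, 13.15 and 13.31 in WT CpG, 13.18 and 13.26 in DRKO unstimulated, and 13.29, 13.31 and 13.40 in DRKO CpG arrays. The DRKO CpG arrays all lay above the DRKO unstimulated ones, by small steps, and the WT groups overlapped. The averaged change was 0.10 (log2, 95% interval -0.08 to 0.27, adjusted p = 0.400, limma). These intervals leave out a fall of the size that Ciita or H2-DMb1 showed. Over all 10 arrays the range from lowest to highest was 0.27 for H2-Aa, 0.29 for H2-Ab1 and 0.33 for H2-Eb1, and 1.14 to 1.64 for the other 5 genes. The 3 chains read close to the top of the scale, whose highest value was 13.74 to 13.98 in each array. Whether signal near that ceiling narrows differences was not tested.

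**Figure D2:**
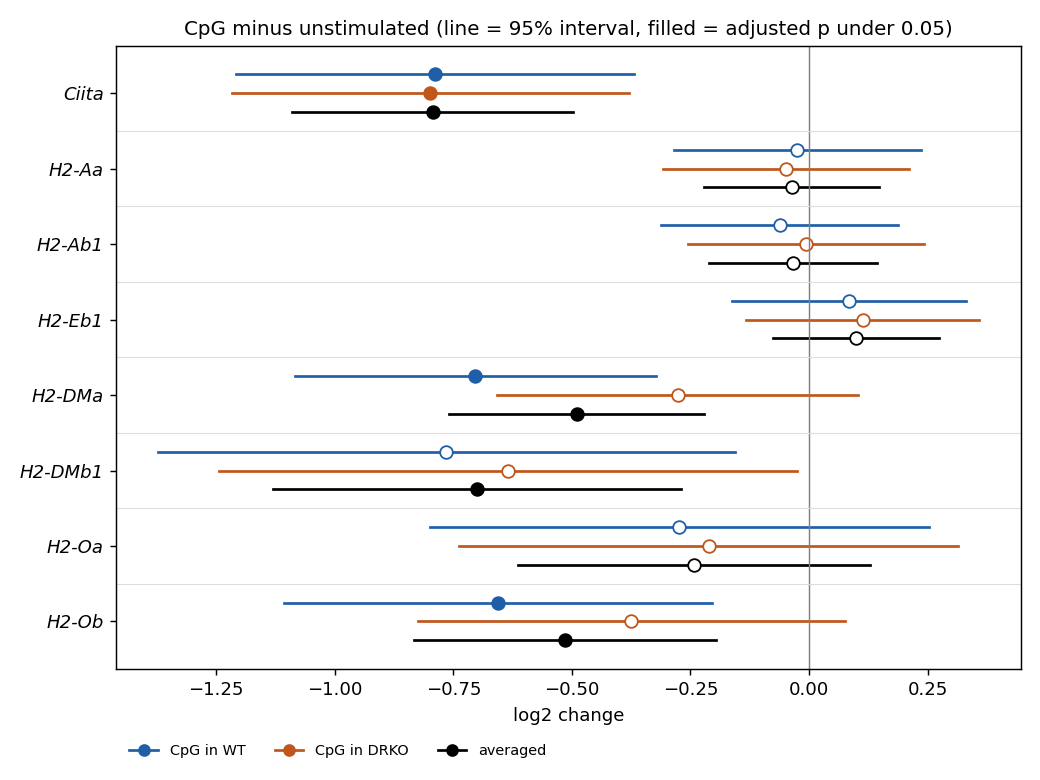
CpG minus unstimulated for each gene (x axis, log2 change), in WT, in DRKO and averaged over genotypes, with 95% intervals as lines. Filled points passed an adjusted p under 0.05: Ciita in all 3 comparisons, H2-DMa and H2-Ob in WT and averaged, and H2-DMb1 averaged, while the intervals of H2-Aa, H2-Ab1, H2-Eb1 and H2-Oa span 0.

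The 8 genes often had their extreme values in the same arrays. WT CpG 2 was the lowest of the 10 arrays for 7 of the 8 genes and the lowest CpG array for all 8, counting only the order of values. DRKO CpG 3 was the highest CpG array for 6 of the 8. How many of all genes tested had their extremes in these arrays was not counted. These counts are therefore not shown to be particular to the 8 genes. WT CpG 2 also had the highest mean of the neutrophil markers (8.74) and DRKO CpG 3 the lowest (5.39). Among the CpG arrays, the mean of the conventional DC markers was lowest in WT CpG 2 (9.65) and highest in DRKO CpG 3 (9.96). For the DC subsets, the cDC2 mean went the same way (8.18 and 8.48). The cDC1 mean was lowest in WT CpG 2 (8.67) but highest in DRKO CpG 2 (9.14). The part of these markers in the class II values was not tested. Without WT CpG 2 the averaged falls of Ciita (-0.74), H2-DMa (-0.40), H2-DMb1 (-0.62) and H2-Ob (-0.46) still passed (adjusted p = 0.00396, 0.0118, 0.0446 and 0.0457, limma). Without DRKO CpG 3 they were -0.88, -0.50, -0.77 and -0.60 and passed as well (adjusted p = 0.000265, 0.0144, 0.0118 and 0.00569, limma).

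**Figure D3:**
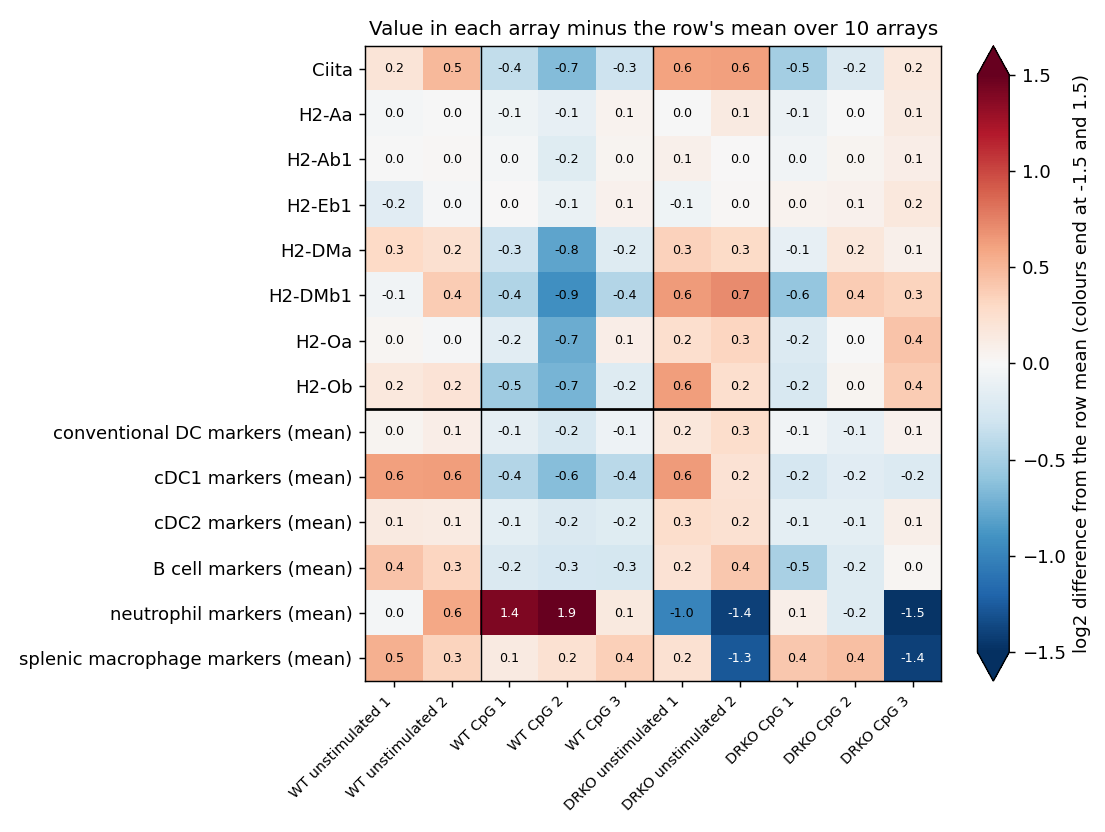
Each cell gives the log2 value of a gene, or the mean of a marker list, in 1 array (columns) minus its mean over the 10 arrays, with blue below and red above. The WT CpG 2 column is the lowest for 7 of the 8 genes, and the rows of H2-Aa, H2-Ab1 and H2-Eb1 stay nearly white.

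Changes within a title series were compared as well, although the series are small. In the first series the change of Ciita was -0.85 in WT (2 and 2 arrays) and -0.97 in DRKO DCs (1 unstimulated and 2 CpG arrays), and in the second it was -0.46 in DRKO DCs (1 and 1). H2-DMa changed by -0.82, -0.32 and -0.21 in the same order, and H2-DMb1 by -0.84, -0.74 and -0.39. These 3 genes were lower after CpG in each series. H2-Ob was lower by -0.80 and -0.72 in the first series but read 0.13 higher after CpG in the second, and H2-Oa went the same way (-0.46, -0.35 and 0.10). WT has no unstimulated array in the second series.

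Between DRKO and WT DCs none of the 8 genes passed an adjusted p under 0.05. This was so without stimulation (0 of 8, against 0.00748% of all genes tested), after CpG (0 of 8, against 0.120%) and averaged over stimulation (0 of 8, against 0.0972%), by limma. At an unadjusted p under 0.05, the counts were 0, 3 and 2 of the 8 genes, beside 619, 1918 and 1556 of the 13371 genes tested. All 8 averaged differences (DRKO minus WT) were above 0, with a median of 0.26 on the log2 scale beside 0.01 over all genes tested. The list was not tested as a whole.

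After CpG the widest genotype differences were those of the editing genes. H2-DMa was 0.48 higher in DRKO than in WT CpG arrays (log2, 95% interval 0.14 to 0.82, adjusted p = 0.195, limma), and all 3 DRKO values (11.65 to 11.95) lay above all 3 WT values (10.98 to 11.58). H2-DMb1 was 0.65 higher (95% interval 0.10 to 1.19, adjusted p = 0.267, limma) and H2-Ob 0.54 higher (95% interval 0.13 to 0.94, adjusted p = 0.214, limma), with overlapping arrays. Leaving out single arrays moved these differences down or up. Without WT CpG 2 they were 0.30 for H2-DMa (adjusted p = 0.412), 0.49 for H2-DMb1 (0.533) and 0.42 for H2-Ob (0.460), and without DRKO CpG 3 they were 0.46, 0.50 and 0.38 (adjusted p = 0.320, 0.479 and 0.421, limma). Without DRKO CpG 1, H2-DMb1 passed (0.96, adjusted p = 0.0360, limma). With the Y-reading DRKO arrays left out, 1 DRKO array of each kind remained, both of the second title series and low in macrophage markers. The differences were then 0.86 for H2-Ob after CpG and 0.74 for H2-DMb1 averaged over stimulation, and they rest on these single arrays. After CpG, 12 of 12 neutrophil markers tested read lower in DRKO DCs, with a median difference of -1.85, and 1 of them passed. All 14 splenic macrophage markers read lower too, with a median of -0.42, and none passed. In contrast, all but 2 of the 9 conventional DC markers tested read higher in DRKO DCs after CpG. Their median difference was 0.21, beside 0.01 over all genes tested. Of these 9, 5 had an unadjusted p under 0.05 (limma), beside 3 of the 8 genes, and none passed. The part of these marker lists in the differences was not tested.

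Within each title series the 8 genotype differences after CpG were above 0. The series divide the same CpG arrays, so this does not replicate the differences above. WT CpG 2, the lowest CpG array for all 8 genes, is in the first series. The share of all genes tested above 0 in each series was not counted. H2-DMa differed by 0.58 in the first series (2 WT and 2 DRKO arrays) and by 0.27 in the second (1 and 1), and H2-DMb1 by 0.58 and 0.77. H2-Ob differed by 0.52 and 0.57. Ciita differed by 0.15 and 0.47, and H2-Aa, H2-Ab1 and H2-Eb1 by 0.05 to 0.10 in both series. Without stimulation the differences were 0.27 ± 0.21 for Ciita and 0.52 ± 0.30 for H2-DMb1 (SE, adjusted p = 0.992 for each, limma), and 0.05 ± 0.19 for H2-DMa (adjusted p = 0.997, limma).

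**Figure D4:**
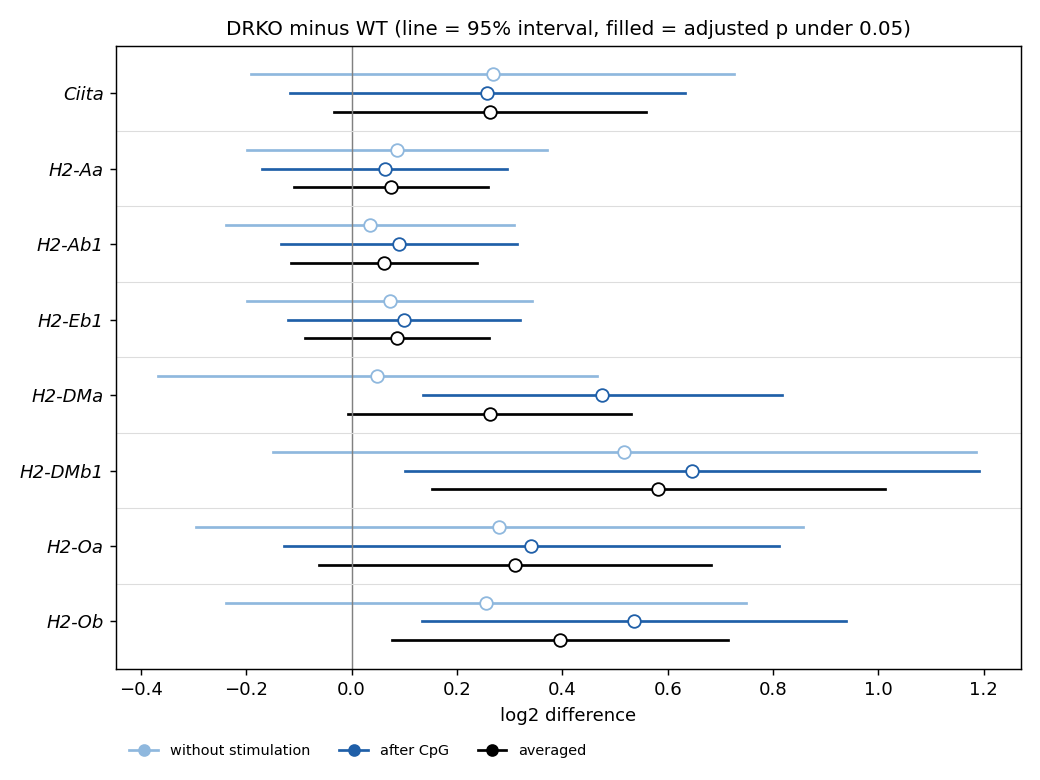
DRKO minus WT for each gene (x axis, log2 difference), without stimulation, after CpG and averaged, with 95% intervals as lines. All points lie above 0 and none is filled, since none passed an adjusted p under 0.05; the intervals of H2-DMa, H2-DMb1 and H2-Ob after CpG lie above 0 before adjustment.

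Whether the CpG response itself differed between genotypes was tested as the interaction. None of the 8 genes passed (0 of 8, against 0.00748% of all genes tested, limma), and none reached an unadjusted p under 0.05, beside 756 of all genes tested. The CpG change of Ciita was -0.01 in DRKO relative to WT (log2, 95% interval -0.60 to 0.58, adjusted p = 0.999, limma). The widest difference was that of H2-DMa, whose change was 0.43 less negative in DRKO DCs (95% interval -0.11 to 0.97, adjusted p = 0.911, limma). With 2 unstimulated arrays per genotype, the intervals are too wide to show that the responses were alike.

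On chromosome 17 the fallen genes lie among others that were not called as fallen. In the RefSeq gene order the 7 class II genes, from H2-Oa to H2-Eb1, have 7 other genes between them, and 6 of these were tested. Averaged over genotypes 1 of the 6 rose with CpG, none fell, and their median change was -0.03. Among all genes tested 11.2% rose and 18.6% fell, so counts over 6 genes do not set this stretch apart. The one that rose was Tap1, a subunit of the peptide transporter for class I (0.57 ± 0.12, SE, adjusted p = 0.00431, limma). Psmb9, an immunoproteasome subunit between H2-DMb1 and Tap1, changed by -0.24 (adjusted p = 0.104), and Brd2, a chromatin reader between H2-Oa and H2-DMa, by -0.05 (adjusted p = 0.744, limma).

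Of 7 factors that sit on class II promoters, 1 fell with CpG and none rose, averaged over genotypes, beside 18.6% fallen and 11.2% risen among all genes tested. The one that fell was Rfxank, a subunit of the RFX complex on the X box (-0.48 ± 0.12, SE, adjusted p = 0.0102, limma), which read 8.36 to 8.72 in unstimulated and 7.78 to 8.41 in CpG arrays. With the Y-reading DRKO arrays left out it was -0.26 (adjusted p = 0.145, limma). Rfxap, another RFX subunit, changed by -0.34 (adjusted p = 0.0619, limma) and passed without WT CpG 3 (-0.39, adjusted p = 0.0466) or DRKO CpG 3 (-0.43, adjusted p = 0.00779), and when the fit took the number series of the titles as a block (-0.36, adjusted p = 0.0202, limma). Rfx5 changed by 0.18 (adjusted p = 0.203), and the NF-Y subunits Nfya, Nfyb and Nfyc by -0.09, 0.01 and -0.05, none passing (limma).

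Among regulators of Ciita transcription, 5 of the 13 tested rose (11.2% of all genes tested) and 4 fell (18.6%) with CpG, averaged over genotypes. Prdm1, which encodes Blimp-1, a repressor of Ciita, read 7.04 to 7.49 in unstimulated and 8.65 to 9.23 in CpG arrays, with no overlap. It rose by 1.65 (log2, SE 0.14, adjusted p = 2.32e-05, limma), 3.14-fold. Socs1, an inhibitor of cytokine receptor signalling, rose by 0.86 (SE 0.11, adjusted p = 0.000294), and Irf1, an activator of Ciita, rose by 0.80 (SE 0.13, adjusted p = 0.00132, limma). The kinases Jak2 and Jak1, which act below the interferon-γ receptor, rose by 0.61 (adjusted p = 0.00334) and 0.32 (adjusted p = 0.0203, limma).

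Ifngr1, the ligand-binding chain of the interferon-γ receptor, fell by 1.24 (log2, SE 0.10, adjusted p = 1.98e-05, limma), to 42.3% of the unstimulated level. It read 11.19 to 11.49 in unstimulated, 9.59 to 9.73 in WT CpG and 10.39 to 10.82 in DRKO CpG arrays, so the DRKO CpG arrays lay between the others. After CpG, Ifngr1 was 0.97 higher in DRKO than in WT DCs (SE 0.13, adjusted p = 0.0225, limma), the only one of the listed pathway genes to pass between genotypes. That call was lost without WT CpG 1 (adjusted p = 0.0878), WT CpG 2 (0.125), DRKO unstimulated 1 or 2 (0.0504 each), DRKO CpG 2 (0.0959) or DRKO CpG 3 (0.0637), at values of 0.88 to 1.01, and with only the groups compared in the fit (0.0922). The interaction for Ifngr1 was 0.79 (SE 0.20, adjusted p = 0.734, limma).

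Irf8, a transcription factor that the cDC1 subset of DCs depends on, fell by 1.11 (log2, SE 0.11, adjusted p = 7.44e-05, limma). Irf4 fell by 0.47 (adjusted p = 0.0325, limma) and Usf2, an E-box factor, by 0.32 (adjusted p = 0.0172, limma). The Irf4 call was lost without WT unstimulated 2 (-0.38, adjusted p = 0.139), WT CpG 1 (0.0658), WT CpG 3 (0.0650), DRKO unstimulated 2 (-0.28, 0.116) or DRKO CpG 1 (0.0674). The Usf2 call was lost without WT unstimulated 2 (0.0751) or DRKO unstimulated 1 (0.0578). The Jak1 call was lost without WT unstimulated 1 (0.0706), WT unstimulated 2 (0.0540) or DRKO unstimulated 2 (0.0625). With the Y-reading DRKO arrays left out, Usf2 (0.0675) and Jak1 (0.151) did not pass either.

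**Figure D5:**
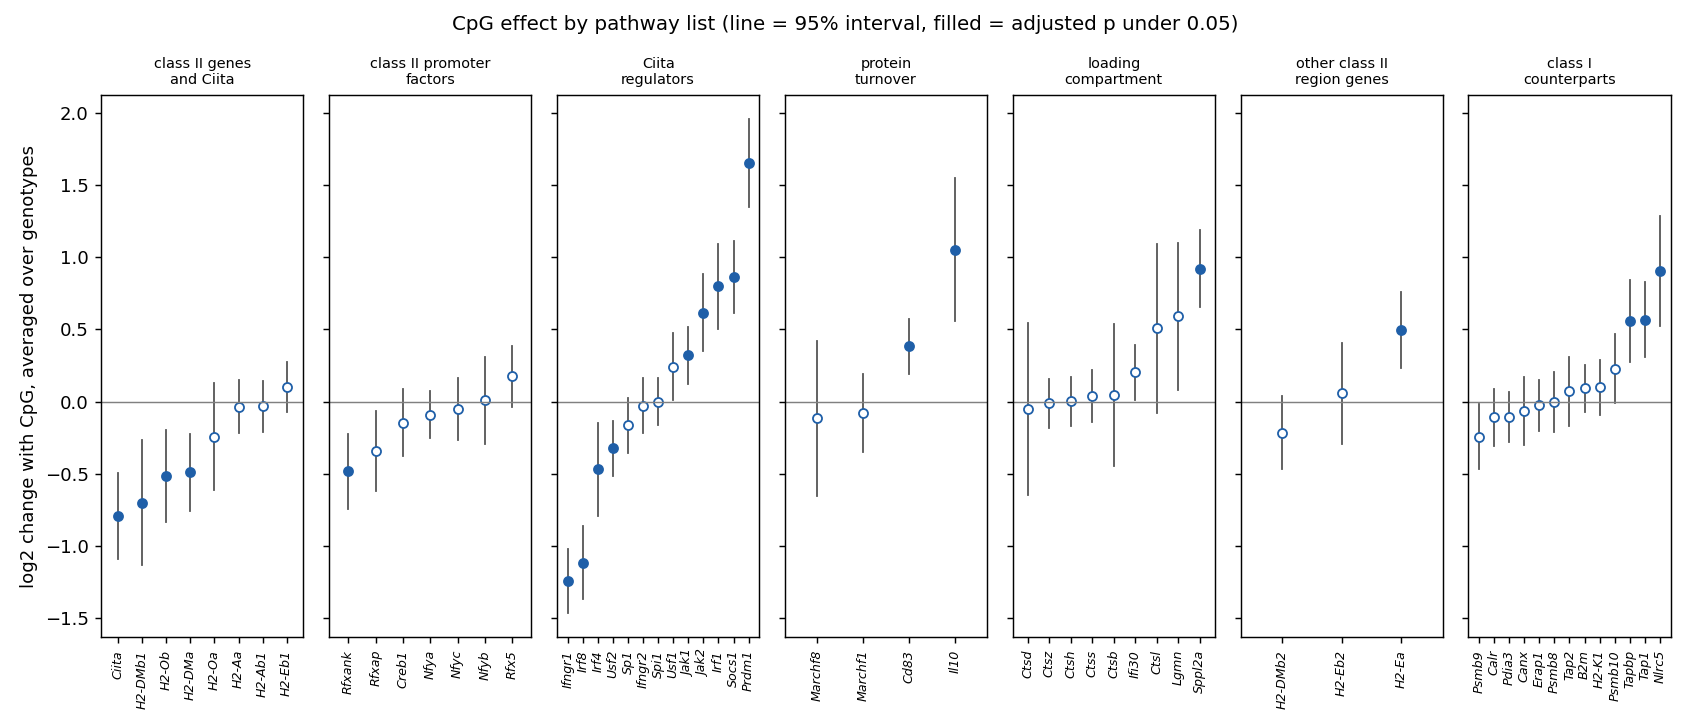
CpG change averaged over genotypes (y axis, log2) for the 8 genes and for the listed genes of the pathway, grouped by role, with 95% intervals as lines and filled points where the adjusted p was under 0.05. The regulators of Ciita run from Ifngr1 at -1.24 to Prdm1 at 1.65, while most genes of the loading compartment and of class I lie near 0.

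Genes that act on class II molecules after transcription were listed apart. Of 4 regulators of class II protein turnover, 2 rose (11.2% of all genes tested rose) and none fell: Cd83, which protects surface class II from degradation, rose by 0.38 (SE 0.09, adjusted p = 0.00667), and Il10, a cytokine that can lower surface class II, rose by 1.05 (SE 0.22, adjusted p = 0.00527, limma). The ubiquitin ligase Marchf1, which drives turnover of class II, changed by -0.08 (adjusted p = 0.688, limma) at values of 4.99 to 5.69, near the array medians of 5.50 to 5.56. Of 9 genes of the loading compartment, 1 rose and none fell, a share of rises near the 11.2% of all genes tested. That one was Sppl2a, the protease that clears the last membrane stub of the invariant chain (0.92 ± 0.12, SE, adjusted p = 0.000311, limma). Ctss, the protease that trims the invariant chain in DCs, changed by 0.04 (95% interval -0.14 to 0.22, adjusted p = 0.779, limma). Lgmn (0.59, adjusted p = 0.0799) and Ctsl (0.51, adjusted p = 0.185) did not pass, but did without DRKO CpG 3 (adjusted p = 0.00569 and 0.00634), 1 of the 2 arrays low in macrophage markers, and Lgmn also without DRKO unstimulated 1 (0.0268, limma). With the number series of the titles blocked both passed (0.65 and 0.57, adjusted p = 0.00415 and 0.0122, limma).

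The class I pathway gives a counterpart. Of 13 genes tested, 3 rose (beside 11.2% of all genes tested) and none fell: Nlrc5, the relative of Ciita that drives class I genes, rose by 0.90 (SE 0.17, adjusted p = 0.00287), Tap1 rose by 0.57, and Tapbp, which encodes tapasin, rose by 0.56 (SE 0.13, adjusted p = 0.00771, limma). H2-K1 and B2m, the class I heavy and light chains, changed by 0.10 (adjusted p = 0.456) and 0.09 (adjusted p = 0.405, limma). Of 3 other class II region genes, H2-Ea rose (0.49 ± 0.12, SE, adjusted p = 0.0100, limma) at values of 4.99 to 6.13 about the array median, and its call was lost without WT unstimulated 1 (adjusted p = 0.0520). The difference between these lists and the 8 genes was not tested.

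Patterns over the 10 arrays were compared by the root-mean-square difference of values centred on each gene's mean, a description without a test. The class II chains resembled each other most: the difference was 0.06 between H2-Aa and H2-Ab1, 0.08 between H2-Aa and H2-Eb1 and 0.08 between H2-Ab1 and H2-Eb1. Genes that vary little are close by construction in this measure. The next pair was H2-DMa with H2-Ob at 0.17, closer than H2-DMa with its partner H2-DMb1 (0.29) or H2-Oa with its partner H2-Ob (0.21). Nearest to Ciita among all genes tested were Vrk1 (0.08), Recql (0.08) and Prps2 (0.11). Nearest to H2-DMa were Prcp, Parvg and Fam174c (0.08 to 0.11), to H2-DMb1 Fam234b, Cd7 and Alox5ap (0.18 to 0.20), and to H2-Ob Ptpn18, Pdk2 and Atp2a3 (0.06 to 0.12).

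Markers of the DCs themselves and of other class II-bearing cells moved with CpG too, though not all in the same direction. Averaged over genotypes, 18.6% of all genes tested fell and 11.2% rose, the shares to set beside each count below. Of 9 conventional DC markers tested, 5 fell and 2 rose averaged over genotypes, with a median change of -0.36 beside -0.37 for the 8 genes. Their mean read 9.92 to 10.15 in unstimulated and 9.65 to 9.96 in CpG arrays. Averaged over genotypes, 9 of 13 B cell markers tested fell and none rose. B cells express Ciita, H2-Ob and the class II chains. The mean of 14 B cell markers read 6.78 to 6.99 in unstimulated and 6.08 to 6.60 in CpG arrays, and 1 of the 14 lay below the median of every array. Of 11 cDC1 markers 6 fell and 2 rose, and their mean read 9.52 to 9.94 in unstimulated and 8.67 to 9.14 in CpG arrays. Of 12 cDC2 markers 4 fell and none rose. Other lists were mixed: of 11 plasmacytoid DC markers 3 rose and 1 fell, with a median change of 0.26. Neutrophil markers had a median of 0.90 (12 tested, 3 rose, 1 fell). Plasma cell markers, Prdm1 among them, had a median of 0.30 (6 tested, 2 rose, 1 fell), and NK cell markers 0.39 (7 tested, 1 rose, none fell). Falls were also called among T cell (7 tested, 2 fell, none rose), monocyte (6 tested, 2 fell, 1 rose) and erythroid markers (5 tested, 1 fell, none rose). Of 14 splenic macrophage markers 1 rose and none fell, with a median change of -0.06. The part of DC, B cell and cDC1 RNA in the falls of Ciita, H2-DMa, H2-DMb1 and H2-Ob was not tested.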

How the data were processed

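The authors deposited log2 intensities per probe set, and the submitters' processing notes name RMA and Affymetrix Expression Console. Versions, annotation and normalization runs: not given in the sources used here. RMA brings arrays to nearly the same distribution, so a shift common to all genes cannot be seen. The table held 41345 probe sets, of which 23521 had 1 symbol (platform annotation, symbols updated through GRCm38.p6 gene identifiers for 23328), 1814 several and 16010 none. Genes were tested where the value exceeded the array median in at least 2 of 10 arrays. With limma 3.58.1 in R 4.3.3, 1 linear model of 4 group means used all 10 arrays (lmFit, eBayes, 6 residual and 4.49 prior degrees of freedom), giving 7 contrasts. Tests were two-sided, with Benjamini-Hochberg adjustment over the 13371 genes tested per contrast, and the threshold was 0.05. Standard errors of the contrast follow the ± sign, and intervals are 95% intervals before adjustment. The number of arrays limits the precision. The pipeline was tested on simulated data.

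The 9 genes and all lists were chosen with earlier results of these data known, so their counts are a description. Pathway genes are named where they passed in any contrast or had 1 of the 3 smallest p-values of their list, and a few more by their role after their values were seen. The 3 nearest genes of each called gene were taken, leaving out predicted genes, clone names and immune receptor segments. The alternatives were no filter, a stricter filter (5 arrays), the mean of a gene's probe sets, quantile normalization, trend and robust eBayes, the title series as a block, only the groups compared, and each array left out. Leaving out the second-series DRKO arrays, or the DRKO arrays that read Y-linked genes, was added after the data were seen.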

Additional observations from a re-analysis of the deposited data

How the results depend on the processing

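No paired analysis was possible because the labels carry no replicate numbers that samples of different groups share. Of 1040 recomputed values of the 8 genes none reversed a call, and 45, passing in neither fit, changed sign. Of the 8 genes, the number called moved to 0 for CpG in DRKO DCs with only the groups compared and with the Y-reading DRKO arrays left out. The latter gave 2 for CpG averaged, 1 for DRKO minus WT after CpG and 1 for DRKO minus WT averaged. Leaving out 1 array gave 0 to 4 of the 8 genes for CpG in WT, 0 to 1 in DRKO, 2 to 4 averaged and 0 to 1 for DRKO minus WT after CpG.

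Over all genes, CpG in DRKO called 402 with only the groups compared and 408 without the Y-reading arrays (1377 in the fit reported). DRKO minus WT after CpG called 16 as reported, 7 with the stricter filter, 76 with trend and robust, 296 with the title block, 3 with only the groups compared, 26 without the second-series DRKO arrays and 723 without the Y-reading arrays. DRKO minus WT unstimulated called 1 as reported and 2, 12, 5 and 250 under the last 4 of these. DRKO minus WT averaged called 13 as reported, 20 with trend and robust, 50 with the block and 987 without the Y-reading arrays. The interaction called 1 as reported and 0 with quantile normalization, the block, or the Y-reading arrays left out. Without 1 array the ranges were 1277 to 3226 (CpG in WT), 423 to 1909 (CpG in DRKO), 2 to 267 (DRKO minus WT after CpG), 1 to 2 (unstimulated), 0 to 1 (interaction) and 1 to 71 (DRKO minus WT averaged). The fits without the Y-reading arrays left 1 DRKO array of each kind. The cause of these shifts was not tested. Array number and signal near background or ceiling limit what can be seen.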
